A study of Mus musculus with 2 samples.

Results

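Microglia and macrophages were taken from single-cell RNA sequencing of whole mouse cerebella at E16.5 as the barcodes that carried at least 3 UMIs (unique molecular identifiers, counted molecules) of C1qa, C1qb and C1qc together and at least 1 UMI of Csf1r. Only barcodes with 1000 or more UMIs, 500 or more genes and no more than 10% mitochondrial UMIs entered. The rule found 217 members among 33294 kept barcodes, 88 of 16482 in the mutant library and 129 of 16812 in the control library. The mutant library came from embryos with cerebellar lesions that carried Blbp-cre, Ctnnb1(ex3)fl/wt and Smarca4fl/fl, and the control library from cre-negative embryos. Blbp-cre acts in radial glia and the cells that descend from them, where recombination removes Smarca4, the ATPase of the BAF chromatin remodelling complex, and exon 3 of Ctnnb1, which leaves a beta-catenin that escapes degradation. Each library was a pool of 3 samples, of which 40000 cells, sorted to leave out dead cells, were loaded on a 10x Chromium 3' v3.1 chip. There was thus no replicate: no p-value was computed, and every interval below covers counting error only.

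Microglia are the resident macrophages of the brain parenchyma, and border macrophages line its meninges, perivascular spaces and choroid plexus. Both arise from yolk sac progenitors and not from radial glia, and both depend on the receptor Csf1r. Microglia keep their identity through TGF-beta signals and the factor Sall1, survey the tissue through purine and fractalkine receptors, and clear dying cells, synapses and debris with the help of complement C1q.

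C1qa, C1qb and C1qc encode the 3 chains of C1q and lie next to each other on the minus strand of chromosome 4 (GRCm38, 136895917 to 136898803, 136880129 to 136886187 and 136889804 to 136893065). Csf1r, the receptor of Csf1 and Il34, lies on chromosome 18 (61100598 to 61132149, plus strand). These 4 genes chose the members, so their levels are a description. In the 2 marker classes introduced below, C1qb stood at 4068 CPM (a gene's UMIs per 1000000 UMIs summed over the cells) in mutant and 3680 CPM in control cells of the microglial-marker class, and at 3643 CPM in mutant cells, against 3656 CPM in control cells of the border-marker class. Csf1r stood at 680 and 788 CPM in the microglial-marker class of the mutant and control library, and at 625 and 588 CPM in the border-marker class of the mutant and control library.

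The edge of the rule was sparsely filled. Members with 3 to 5 C1q UMIs numbered 5 in the mutant and 3 in the control library. Just outside, 2 mutant and 4 control barcodes had 2 C1q UMIs with Csf1r, and 21 mutant and 17 control barcodes had 3 or more C1q UMIs but none of Csf1r. Of the members, 9 in the mutant and 14 in the control library had exactly 1 Csf1r UMI. At least 1 C1q UMI was found in 3.20% of other kept barcodes in the mutant and 3.24% in the control library. The median member carried 107.5 C1q UMIs in the mutant and 94 in the control library.

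Among the control members 5 stood apart, as the plot of C1q level against depth shows. They held 115734 to 150815 UMIs each and 31.8% of all UMIs of control members, with only 0.605 to 1.89 C1q UMIs per 10000 UMIs, against a median of 93.2 over all control members. Haemoglobin made up 17.1% to 18.7% of their UMIs, and neural genes 134 to 154 UMIs per 10000, against a median of 7.99 over all control members. Among kept barcodes, 2 in the mutant and 10 in the control library exceeded 100000 UMIs. None of the 88 mutant members did. The libraries shared 123 barcode sequences in all and 0 among the members. Summed values over all members are therefore given with and without these barcodes, and the gene comparisons below rest on the marker classes, to which none of them belonged.

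**Figure D1:**
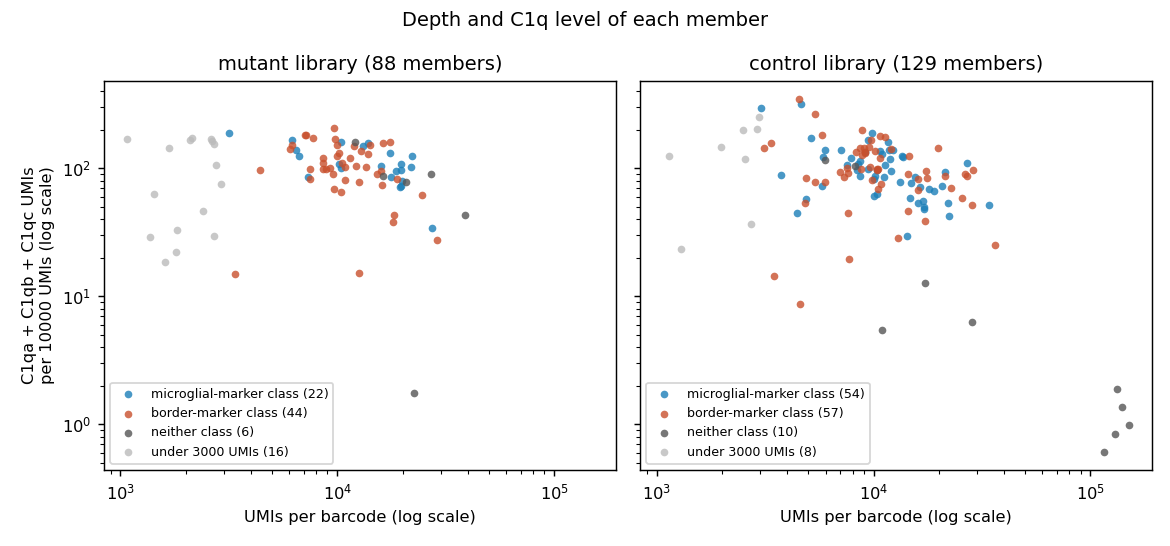
Each point is 1 member, with its UMIs on the x axis and its C1qa, C1qb and C1qc UMIs per 10000 UMIs on the y axis, both on log scales, for the mutant (left) and control (right) library. The 5 control barcodes over 100000 UMIs sit alone at the lower right, at 0.605 to 1.89 C1q UMIs per 10000.

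The label held against genes that the rule did not use, with the reservation that members chosen by C1q and Csf1r had to be rich in genes of the same cells. Against the other kept barcodes of the same library, the highest ratios were those of the C1q genes and, among genes the rule did not use, of the chemokines Ccl4 (2550 against 0.831 CPM in the mutant and 2227 against 1.81 CPM in the control library) and Ccl3 (1409 against 0.670 and 1231 against 1.06 CPM), which recruit leukocytes. Next were Pf4, a chemokine of border macrophages, Ccl2 and Ccl7, ligands of Ccr2, and the microglial Fc receptor-like gene Fcrls. Then came the adaptors Fcer1g and Tyrobp, the lysosomal protease Ctss, the chemokines Cxcl2 and Ccl24, Ly86, the partner of the receptor Cd180, and Trem2, the lipid receptor that signals through Tyrobp. Genes at least 2-fold higher in members were 15.9% of those tested in the mutant and 12.3% in the control library. T-cell gene Cd3e and myeloid precursor gene Mpo had no UMI in any member, which allows up to 3 counts in the 1014861 UMIs of mutant and the 2106700 UMIs of control members. The monocyte receptor Ccr2 had UMIs in 0 mutant and 2 control members. The monocyte list as a whole was present, with a sum of 720 CPM in mutant and 407 CPM in control members. Its gene Ms4a6c had UMIs in 59 mutant and 68 control members. The list of neutrophil, mast and lymphoid genes summed to 2372 CPM in mutant and 664 CPM in control members. Whether monocytes or other leukocytes were among the members was not tested. The endothelial gene Cldn5 had UMIs in 0 mutant and 3 control members.

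The members fell into microglial- and border-marker classes. Each member with at least 3000 UMIs (72 mutant, 121 control) was thinned to 3000, and the UMIs of P2ry12, P2ry13, Gpr34, Siglech, Sall1 and Cx3cr1 were set against those of Mrc1, Pf4, Lyve1, Cd163, F13a1, Ms4a7 and Cbr2. The larger sum, where at least 3, gave the class. Such a class is a range of a score, not a type. The microglial-marker class held 22 mutant and 54 control members and the border-marker class 44 mutant and 57 control members. Neither sum was larger and at least 3 in 6 mutant and 10 control members, and 16 mutant and 8 control members were too shallow. In the microglial-marker class the median microglial sum was 8 in mutant and 7.5 in control cells, with a median border sum of 0 in both libraries. In the border-marker class the median border sum was 62.5 in mutant and 64 in control cells, with a median microglial sum of 1 in both. Both sums reached 3 in 8 mutant and 14 control members, and the larger sum lay at 2 to 4, near the threshold, in 6 mutant and 13 control members.

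**Figure D2:**
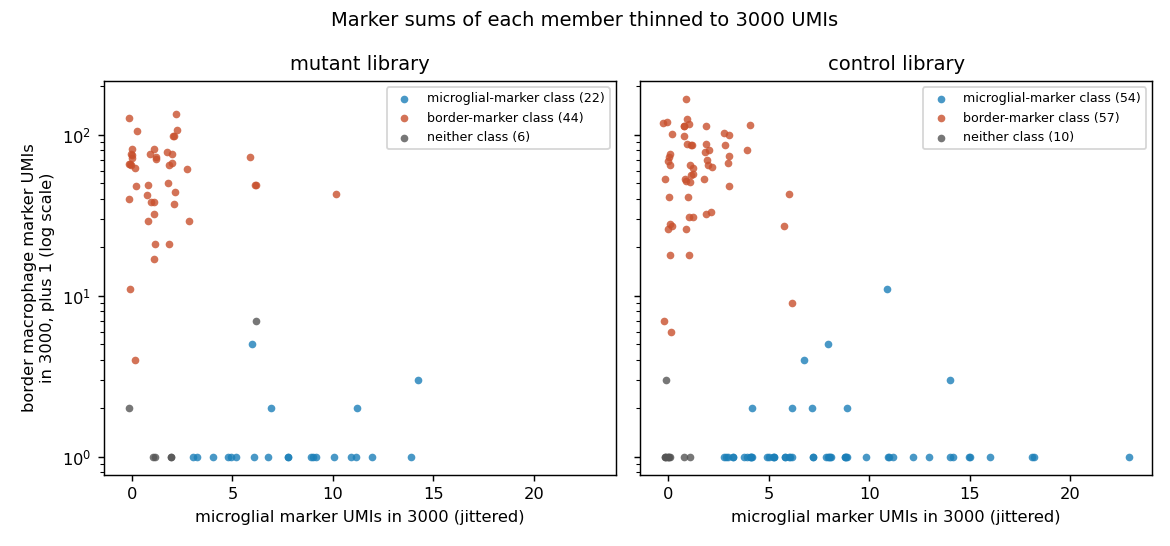
Each point is 1 member thinned to 3000 UMIs, with its microglial marker UMIs on the x axis (linear, jittered) and its border macrophage marker UMIs plus 1 on the y axis (log scale), for the mutant (left) and control (right) library. Of the border-marker class, 14 mutant and 15 control cells had no microglial marker UMI, and of the microglial-marker class, 18 mutant and 46 control cells had no border marker UMI.

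Promoters of genes that set the classes apart are shown because the genes were used to draw the classes and because Spi1 (PU.1), the ETS factor that macrophages need, binds sequences with the core GAGGAA. Spi1 stood at 395 and 376 CPM in the microglial-marker class and at 431 and 414 CPM in the border-marker class of the mutant and control library. The 250 bases before the RefSeq start (GRCm38.p6, mm10 coordinates) are those of the purine receptor genes P2ry12 (chr3:59262986-59263235, minus strand) and P2ry13 (chr3:59210883-59211132, minus strand), of the mannose receptor gene Mrc1 (chr2:14229164-14229413, plus strand) and of the chemokine gene Pf4 (chr5:90772185-90772434, plus strand). Capitals mark GAGGAA or its reverse complement TTCCTC.
P2ry12: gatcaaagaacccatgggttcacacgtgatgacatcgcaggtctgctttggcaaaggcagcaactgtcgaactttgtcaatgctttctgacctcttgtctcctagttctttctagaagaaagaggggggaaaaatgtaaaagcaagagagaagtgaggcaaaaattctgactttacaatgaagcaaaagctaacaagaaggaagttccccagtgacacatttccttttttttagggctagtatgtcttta
P2ry13: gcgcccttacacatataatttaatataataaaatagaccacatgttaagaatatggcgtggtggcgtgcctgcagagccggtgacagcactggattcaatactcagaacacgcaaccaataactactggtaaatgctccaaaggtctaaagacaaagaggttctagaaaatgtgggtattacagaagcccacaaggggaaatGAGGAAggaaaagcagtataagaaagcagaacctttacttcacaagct
Mrc1: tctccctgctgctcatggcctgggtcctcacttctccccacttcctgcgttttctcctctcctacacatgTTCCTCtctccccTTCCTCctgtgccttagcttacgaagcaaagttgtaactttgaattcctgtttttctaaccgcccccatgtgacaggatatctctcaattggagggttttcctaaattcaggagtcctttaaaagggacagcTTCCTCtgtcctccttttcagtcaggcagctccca
Pf4: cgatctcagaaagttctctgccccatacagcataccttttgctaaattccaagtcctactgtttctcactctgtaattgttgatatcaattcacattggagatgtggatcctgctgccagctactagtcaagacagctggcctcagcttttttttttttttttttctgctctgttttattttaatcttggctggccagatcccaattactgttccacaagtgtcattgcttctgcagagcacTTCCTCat
P2ry13 and Pf4 had 1 match each, Mrc1 had 3 and P2ry12 had 0. The motif occurs in 23.3% of the 32851 promoters in the table, so these matches are a description of the letters and nothing more.

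Microglial-marker cells were scarcer in the mutant library, while border-marker cells were not distinguishable in share. Members made up 0.534% of kept barcodes in the mutant library (95% Clopper-Pearson interval 0.428% to 0.657%) and 0.767% in the control library (0.641% to 0.911%), a ratio of 0.696 (0.525 to 0.919). Without the barcodes over 100000 UMIs the shares were 0.534% in the mutant and 0.738% in the control library, a ratio of 0.724 (0.544 to 0.959). The microglial-marker class made up 0.133% (0.0837% to 0.202%) of mutant and 0.321% (0.241% to 0.419%) of control barcodes, a ratio of 0.416 (0.241 to 0.694). The border-marker class made up 0.267% (0.194% to 0.358%) of mutant and 0.339% (0.257% to 0.439%) of control barcodes, a ratio of 0.787 (0.519 to 1.19). These class shares leave out the members too shallow to thin, of which 11 mutant and 2 control cells were border-marker cells without thinning. The border-marker ratio was 0.985 when thinned to 1000 UMIs and 0.953 without thinning. For the microglial-marker class it was 0.464 and 0.444. Within both classes together, microglial-marker cells were 33.3% of mutant (22.2% to 46.0%) and 48.6% of control cells (39.0% to 58.3%). These intervals overlap. The interval of the ratio, 0.397 to 1.14, treats the counts as rare events and is too wide for shares of this size. No conclusion on that proportion is drawn from it.

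A share depends on every other cell in the suspension. Set against endothelial marker cells (at least 3 UMIs of Cldn5, Cdh5 and Pecam1), which numbered 308 in the mutant and 282 in the control library, there were 28.6 members per 100 in the mutant and 45.7 in the control library, a ratio of 0.625 (0.471 to 0.825). The same ratio was 0.373 (0.216 to 0.623) for microglial-marker and 0.707 (0.466 to 1.07) for border-marker cells.

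**Figure D3:**
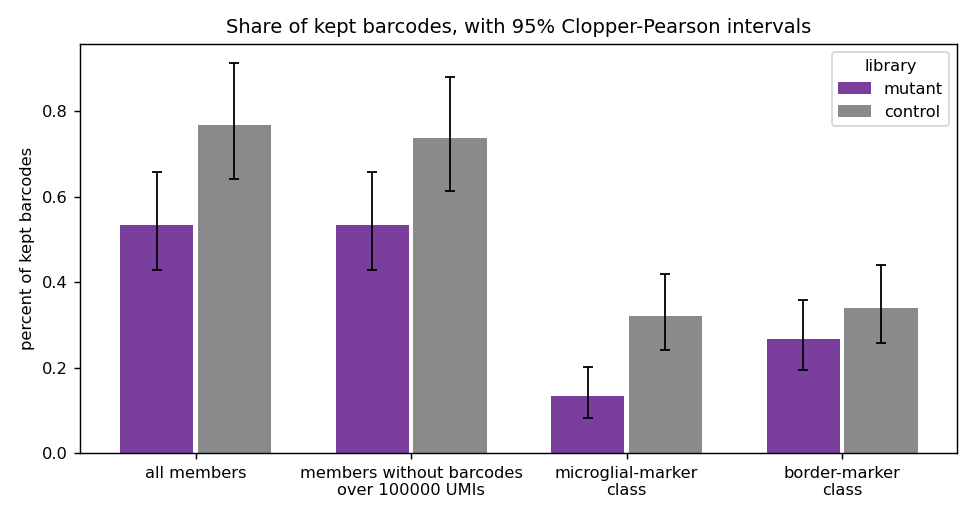
Bars give the percent of kept barcodes that were members or belonged to a marker class in the mutant (purple, left) and control (grey, right) library, with 95% Clopper-Pearson intervals for counting error. The intervals of the microglial-marker class do not overlap (0.0837% to 0.202% in mutant, 0.241% to 0.419% in control), and those of the border-marker class do.

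The classes differed from each other in many genes that the marker sums did not use. With a threshold of 1.5-fold and the counting interval of the ratio on 1 side of 1, 1410 genes were higher in the microglial-marker class in the mutant and 1683 in the control library, 600 of them in both. Lower were 750 genes in the mutant and 746 in the control library, 388 of them in both. The shares past that threshold were 15.3% higher and 8.12% lower in the mutant and 17.6% higher and 7.78% lower in the control library. Genes of the marker sums fixed the classes and are not named here, but the counts include them. Olfml3, a secreted microglial glycoprotein, stood at 361 against 5.80 CPM in the mutant and 314 against 5.80 CPM in the control library (microglial-marker class against border-marker class). Tmem119, a microglial membrane protein, was at 85.8 against 1.93 and 86.4 against 5.80 CPM. The same direction held for Blnk, a B-cell linker adaptor also used by microglia, Csf1, the growth factor of the lineage, and Tgfbr1, a TGF-beta receptor chain. In the other direction stood Ccl24, an eosinophil chemokine, at 3.06 against 1383 CPM in the mutant and 10.6 against 1158 CPM in the control library, and Fcna, a ficolin lectin, at 0 against 746 and 4.55 against 289 CPM. Scavenger receptors Cd36 and Msr1, the lectin Clec10a and the adaptor Dab2 were also lower in the microglial-marker class.

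Among interferon-related genes, 7 of 10 tested in both libraries were lower in the microglial-marker class and 0 higher. Among iron and haem handling genes 6 of 9 were lower and 0 higher. That list includes Cd163, a gene of the border marker sum, whose direction was fixed by how the classes were drawn. Over all genes tested in both libraries, 4.54% were lower in both and 7.03% higher in both. Of the Csf1r and TGF-beta signalling list 7 of 15 were higher and 0 lower. Neutrophil genes such as S100a8, a calgranulin, came almost wholly from single barcodes: S100a8 had 99.9% of its border-marker UMIs in 1 of 44 mutant cells and all of them in 1 of 57 control cells.

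Over all members, 1527 of 9397 genes tested (16.2%) were at least 1.5-fold higher in the mutant library and 964 (10.3%) lower, with the counting interval of the ratio on 1 side of 1. Without the barcodes over 100000 UMIs 633 genes were higher and 527 lower, so this comparison turned on those 5 control barcodes. With removal of each gene's top barcode in each library, 1108 genes (11.8%) stayed higher and 839 (8.93%) lower. Scaling by TMM turned the split over, to 872 higher and 1470 lower, and moved the median log2 ratio of all genes to -0.03, against 0.16. Genes outside the lineage that were lowest in mutant members, such as Aldoc (2.96 against 108 CPM), an astroglial aldolase, and Olig1 (1.97 against 56.5 CPM), an oligodendrocyte lineage factor, had their UMIs in 2 mutant cells each and in 16 and 14 control cells. The largest ratios the other way among genes enriched in members were those of Camp, an antimicrobial peptide of neutrophils, at 195 CPM in mutant and 0 in control members, and Cpa3, a mast cell carboxypeptidase, at 143 CPM in mutant and 0 in control members, and each came from 1 mutant barcode. Among genes enriched in members, Csf1 and Oser1, an oxidative stress gene, were lower in mutant members both with and without the deep barcodes. Csf1 stood at 109 CPM in mutant members, against 178 CPM in control members, and Oser1 at 48.3 and 85.0 CPM. With doublets called by Scrublet removed, the log2 ratio of Csf1 was -0.48 and no longer past the threshold, against -0.70 with them. Crybb1, a crystallin gene that microglia express, did not pass the threshold over all members but did without the deep barcodes, with a log2 ratio of -1.01, against -0.48 with them.

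In the classes, 501 of 9608 genes (5.21%) were higher in mutant than in control microglial-marker cells and 610 (6.35%) lower. In border-marker cells 466 of 8957 genes (5.2%) were higher and 584 (6.52%) lower. Because 22 to 57 cells stand behind each sum, a gene is called held below only if it stayed past the threshold after removal, in each library, of the barcode with most UMIs of that gene. This left 219 higher (2.28%) and 490 lower (5.1%) in the microglial-marker class and 297 higher (3.32%) and 393 lower (4.39%) in the border-marker class. The median cell held 16666.5 UMIs in mutant and 11102 UMIs in control microglial-marker cells and 10449 and 9791 UMIs in mutant and control border-marker cells. Depth bears on counts of cells with a UMI, and deep cells weigh more in a summed CPM.

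Enrichment of a class at least 2-fold over other kept barcodes was looked at only for genes at 50 CPM or more. Predicted gene models, haemoglobin, ribosomal, mitochondrial and sex-linked genes were left out. By that measure 35 genes held higher and 133 held lower in the microglial-marker class were enriched. In the border-marker class 91 held higher and 44 held lower were enriched. The held counts above start at 10 CPM, so the share of them that was enriched is not known. By their summed UMIs, neural genes were lower in mutant than in control microglial-marker cells (ratio 0.609, 0.562 to 0.660). In border-marker cells the interval of the ratio included 1 (0.949, 0.872 to 1.03). The list of 15 neural genes summed to 2432 CPM in mutant cells, against 3992 CPM in control microglial-marker cells, and to 1820 and 1918 CPM in mutant and control border-marker cells. Among genes held lower in both classes were Dcc, a netrin receptor, and Erbb4, a neuregulin receptor, which in other kept barcodes stood at 1975 and 3859 CPM and at 643 and 1501 CPM in the mutant and control library. The part of RNA from other cells in the class counts was not tested.

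How the microglial-marker class was drawn mattered. Drawn without thinning it held 27 mutant and 62 control cells, and 4 of the control cells had over 100000 UMIs each and together 44.8% of the UMIs of that class. The median log2 ratio of all genes was then 0.18, and -0.02 with those barcodes left out. For the homeostatic list it was 0.65 with and -0.14 without them, for complement 0.91 and 0.07, for lysosomal genes 0.77 and -0.01, for phagocytic receptors 0.91 and 0.10, for Csf1r and TGF-beta signalling 0.59 and -0.24, for transcription factors 0.50 and -0.35, for immediate early genes 0.31 and -0.43, and for chemokines and cytokines 0.95 and 0.11.

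Neither Cre target separated the libraries in these cells. Smarca4 stood at 33.7 CPM in mutant cells, against 33.3 CPM in control microglial-marker cells (ratio 1.01, 0.442 to 2.17) and at 34.8 and 42.1 CPM in mutant and control border-marker cells (0.827, 0.433 to 1.54). Ctnnb1 stood at 98.0 and 89.4 CPM in mutant and control microglial-marker cells and at 87.0 and 60.9 CPM in mutant and control border-marker cells, with intervals that include 1. Tags at the 3' end of a transcript lie outside the floxed exons of both genes, so these counts check nothing about recombination.

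P2ry12, the purine receptor that steers microglial processes, stood at 554 CPM in mutant cells, against 550 CPM in control microglial-marker cells (ratio 1.01, 0.838 to 1.21), and Tmem119 at 85.8 and 86.4 CPM (0.993, 0.608 to 1.59). P2ry12 was 1 of the genes that set the class, which bounds how far it could differ. Of the homeostatic list, 0 of 15 genes were held higher and 1 lower, against 2.28% and 5.1% of all genes tested. The list's median log2 ratio was -0.10, and 1 gene is not read as a shift of the list. The gene lower was Crybb1, at 640 CPM in mutant cells, against 991 CPM in control cells (log2 ratio -0.63, -0.89 without the top barcodes). Trem2 stood at 1035 and 908 CPM in mutant and control cells, and 0 of the 24 lysosomal genes were called in either direction, with a median log2 ratio of 0.12.

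Of 15 phagocytic receptor genes, 1 was held higher (Cd14) and 2 lower (Mertk and Itgb5), and of 16 genes of Csf1r and TGF-beta signalling 0 were held higher and 2 lower (Csf1 and Smad3). The other 12 and 14 genes were not held. Of all genes tested in the class, 2.28% were held higher and 5.1% lower, and counts this small are not read as a shift of either list. Csf1, the ligand of Csf1r, stood at 303 CPM in mutant cells, against 524 CPM in control microglial-marker cells (log2 ratio -0.79), with UMIs in 12 of 22 mutant and 41 of 54 control cells. The median cell was at 45.2 CPM in mutant cells, against 330 CPM in control cells. Mertk, the receptor kinase through which phagocytes bind apoptotic cells, stood at 165 and 350 CPM (-1.08), and Itgb5, an integrin chain for the same task, at 187 and 311 CPM (-0.73) in mutant and control cells. Smad3, a transducer of TGF-beta signals, stood at 36.8 and 102 CPM (-1.44), whereas the receptor gene Tgfbr1 stood at 364 and 421 CPM with an interval of the ratio of 0.692 to 1.08. Higher in mutant cells were Cd14, the co-receptor for lipopolysaccharide (132 and 53.0 CPM, 1.30), Igf1, a growth factor secreted by developmental microglia (175 and 71.2 CPM, 1.28), and Apoc1, an apolipoprotein (129 and 40.9 CPM, 1.63). Igf1 had UMIs in 7 and Apoc1 in 8 of the 22 mutant cells. Spp1, osteopontin, was at 1712 CPM in mutant cells, against 535 CPM in control cells, but 77.8% of its mutant UMIs lay in 1 cell, and without the top cells the log2 ratio was 0.10.

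Some cytokine genes were higher in mutant microglial-marker cells. Il1b, the inflammatory cytokine interleukin-1 beta (chromosome 2, 129364570 to 129371139, minus strand), stood at 655 CPM in mutant cells, against 13.6 CPM in control cells, a ratio of 48.1 (24.8 to 107), with UMIs in 8 of 22 mutant and 3 of 54 control cells. The mutant cell with most Il1b held 40.2% of its UMIs, and without the top cells the log2 ratio was 5.60. In border-marker cells Il1b was at 576 CPM in mutant cells, against 564 CPM in control cells. Cxcl10, an interferon-induced chemokine, was at 502 and 56.1 CPM in mutant and control microglial-marker cells, in 5 and 8 cells, and Cxcl2, a neutrophil chemokine, at 319 and 80.3 CPM, also in 5 and 8 cells. Tnf was at 172 CPM in mutant cells, against 81.8 CPM in control cells, in 14 of 22 mutant and 23 of 54 control cells. Of the 19 chemokine and cytokine genes tested, these 4 were held higher and 0 lower, against 2.28% and 5.1% of all genes tested. The list's median log2 ratio was 0.53, against -0.02 over all genes. By its sum the list was at 10834 CPM in mutant cells, against 10622 CPM in control cells. The interval of that ratio includes 1, so no rise of the summed list was detectable. The most abundant chemokines were not among the genes held higher. Ccl4 stood at 4628 CPM in mutant cells, against 5741 CPM in control cells, and Ccl3 at 1789 and 2431 CPM.

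Cells with at least 3 UMIs of Ccl2, Ccl3, Ccl4, Ccl7 and Ccl12 in 3000 made up 95.5% of mutant (77.2% to 99.9%) and 75.9% of control (62.4% to 86.5%) microglial-marker cells, and 81.8% of mutant and 77.2% of control border-marker cells. The same count gave 0.0627% of other kept barcodes in the mutant and 0.0421% in the control library, with median depths of 10927 and 11460 UMIs.

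Of 21 transcription factor genes of the lineage, 5 were held lower in mutant microglial-marker cells and 0 higher. The shares of all genes tested there were 5.1% held lower and 2.28% held higher. Runx1, which acts in myeloid development, stood at 309 CPM in mutant cells, against 476 CPM in control cells (log2 ratio -0.62), Mef2a at 426 and 659 CPM (-0.63) and Fli1 at 181 and 286 CPM (-0.66). Id1, a BMP target, had no UMI in the 22 mutant cells and 42.4 CPM in control cells, at least 4.62-fold lower with a floor of 3 counts over the mutant class. The fifth was Id2, an inhibitor of basic helix-loop-helix factors. In the same cells Irf8, which microglia need, was at 129 and 118 CPM in mutant and control cells, with an interval of the ratio that includes 1. Runx1 was lower in border-marker cells too, at 383 CPM in mutant cells, against 580 CPM in control cells (-0.60), as was Nfkb1, an NF-kappaB subunit, at 124 and 250 CPM in border-marker and 236 and 371 CPM in microglial-marker cells of the mutant and control library.

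**Figure D4:**
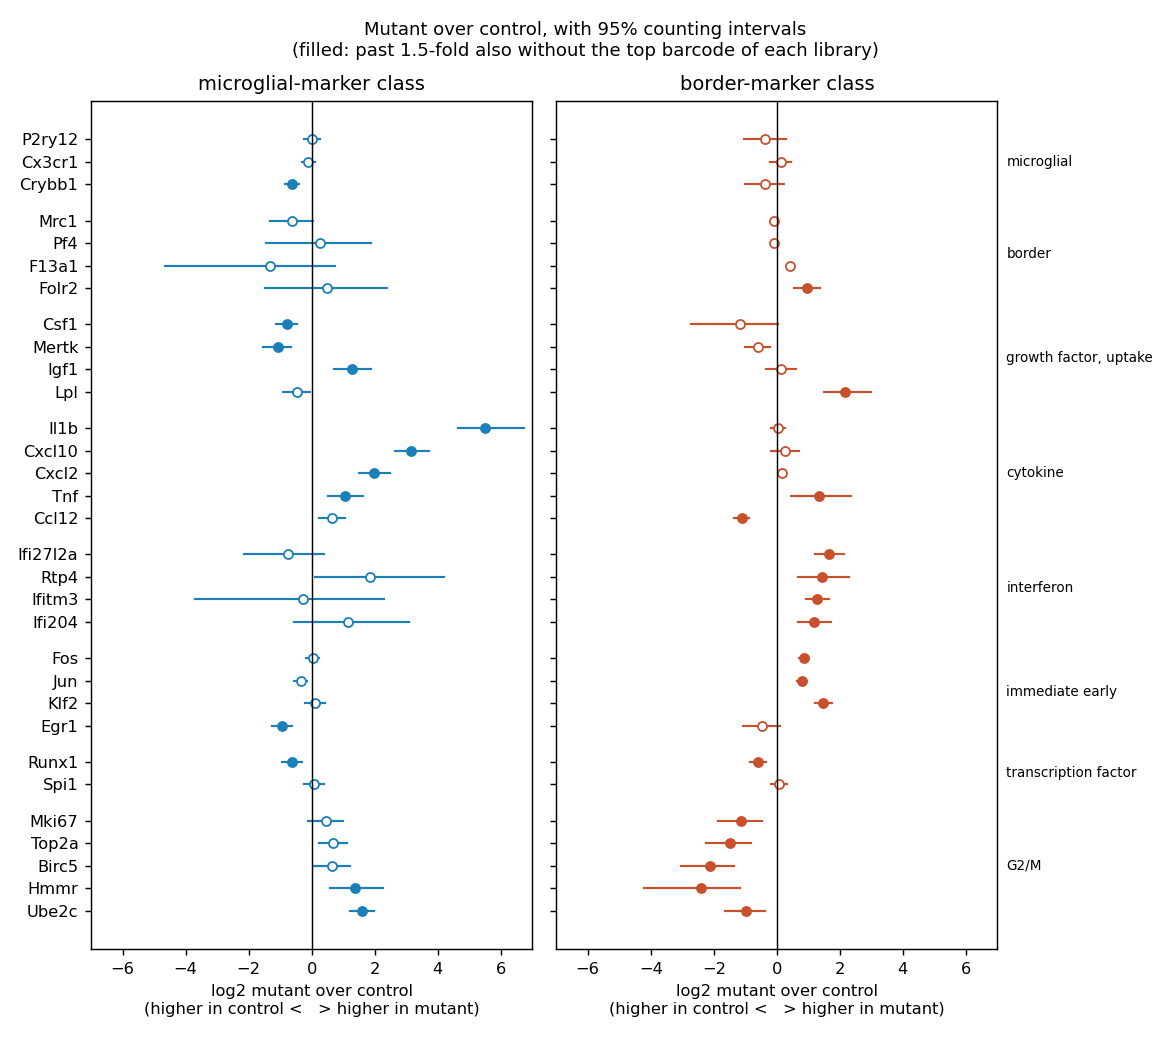
Points give the log2 ratio of mutant over control CPM for genes of 8 groups in the microglial-marker class (left) and the border-marker class (right), with 95% counting intervals. Filled points passed the 1.5-fold threshold also without the barcode with most UMIs of the gene in each library; Il1b is filled at 5.49 in the left panel and open at 0.03 in the right.

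Border-marker cells of the mutant library had more interferon-related and immediate early transcripts. Of the 15 genes of the border macrophage list, 2 were held higher (Folr2 and Cbr2, a carbonyl reductase) and 0 lower. The shares of all genes tested in this class were 3.32% held higher and 4.39% held lower. The genes of the marker sum drew the class, which bounds how far they could differ. Of these, Mrc1 stood at 2212 CPM in mutant cells, against 2342 CPM in control cells, Pf4 at 12344 and 13265 CPM, Lyve1, a hyaluronan receptor, at 1164 and 950 CPM, and F13a1, a coagulation factor chain, at 2531 and 1894 CPM (ratio 1.34, 1.24 to 1.44). The folate receptor gene Folr2 was at 238 CPM in mutant cells, against 122 CPM in control cells (log2 ratio 0.96), and Cbr2, also in the marker sum, at 27.1 and 10.2 CPM.

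Of 14 interferon-related genes tested in these cells, 4 were held higher and 0 lower, against 3.32% and 4.39% of all genes tested. The list's median log2 ratio was 0.90, against -0.04 over all genes. Ifi27l2a, an interferon-induced protein (chromosome 12, 103442167 to 103443680, minus strand), stood at 269 CPM in mutant cells, against 84.2 CPM in control cells (ratio 3.19, 2.34 to 4.42), in 21 of 44 mutant and 11 of 57 control cells. Ifitm3, which blocks viral entry, was at 344 and 141 CPM, Ifi204, a sensor of DNA, at 162 and 71.1 CPM, and Rtp4, an interferon-induced chaperone of receptors, at 83.2 and 30.5 CPM in mutant and control cells. The summed list had a median over cells of 25.3 UMIs per 10000 in mutant and 16.8 in control border-marker cells, with overlapping ranges of 4.50 to 93.2 in mutant and 2.19 to 64.9 in control cells. In microglial-marker cells the medians were 3.05 in mutant and 3.21 in control cells. There, 1 gene, Irf9, was held higher and 1, Ifitm2, lower, against 2.28% and 5.1% of all genes tested. The median log2 ratio of the 9 genes tested there was 0.83, near that of border-marker cells, against -0.02 over all genes. Their list summed to 469 CPM in mutant and 347 CPM in control microglial-marker cells. Without the top cell of each library the sums were 334 and 340 CPM.

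Of 19 immediate early genes, 5 were held higher in mutant border-marker cells and 0 lower, against 3.32% and 4.39% of all genes tested. Fos and Jun, partners in the AP-1 factor, stood at 1650 and 905 CPM and at 1547 and 891 CPM in mutant and control cells. Klf2, a factor of quiescent leukocytes, was at 671 and 241 CPM (log2 ratio 1.47) and Klf6 at 1015 and 562 CPM. Fosb was the fifth of them. The median over cells of the summed list was 116 UMIs per 10000 in mutant and 70.3 in control border-marker cells. In other kept barcodes Fos was at 265 CPM in the mutant library, against 250 CPM in the control library and Klf2 at 64.4 and 32.1 CPM. In microglial-marker cells the list went by its sum the other way: 4 of 19 were held lower, Jund, Ier2, Egr1, a growth factor response factor (309 and 596 CPM in mutant and control cells), and Hspa1b. Of all genes tested there, 5.1% were held lower. The list's median log2 ratio was -0.36. The median over those cells went against the sum, at 89.2 UMIs per 10000 in mutant and 74.3 in control cells.

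In border-marker cells 1 of 13 lipid handling genes (Lpl) and 1 of 17 phagocytic receptor genes (Timd4) were held higher and 0 lower. Of 19 chemokine and cytokine genes 4 were held higher and 2 lower. Of all genes tested in this class, 3.32% were held higher and 4.39% lower. Lpl and Timd4 are thus not read as a shift of their lists. Lpl, lipoprotein lipase, was at 141 CPM in mutant cells, against 30.5 CPM in control cells (ratio 4.63, 2.82 to 7.93), in 20 and 11 cells, and Timd4, a phosphatidylserine receptor, at 63.8 and 13.1 CPM in 6 and 5 cells. Tnf was held higher as in the other class, at 60.0 and 23.2 CPM, with Ccl4, Ccl6 and Ccl9. Ccl12 was lower, at 352 and 762 CPM, as was Cxcl1, at 23.2 and 88.5 CPM, in mutant and control cells. Sparc, a matrix glycoprotein, was at 23.2 CPM in mutant cells, against 60.9 CPM in control border-marker cells, and Cd9, a tetraspanin, at 32.9 and 115 CPM, and both are genes far higher in the microglial-marker class.

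**Figure D5:**
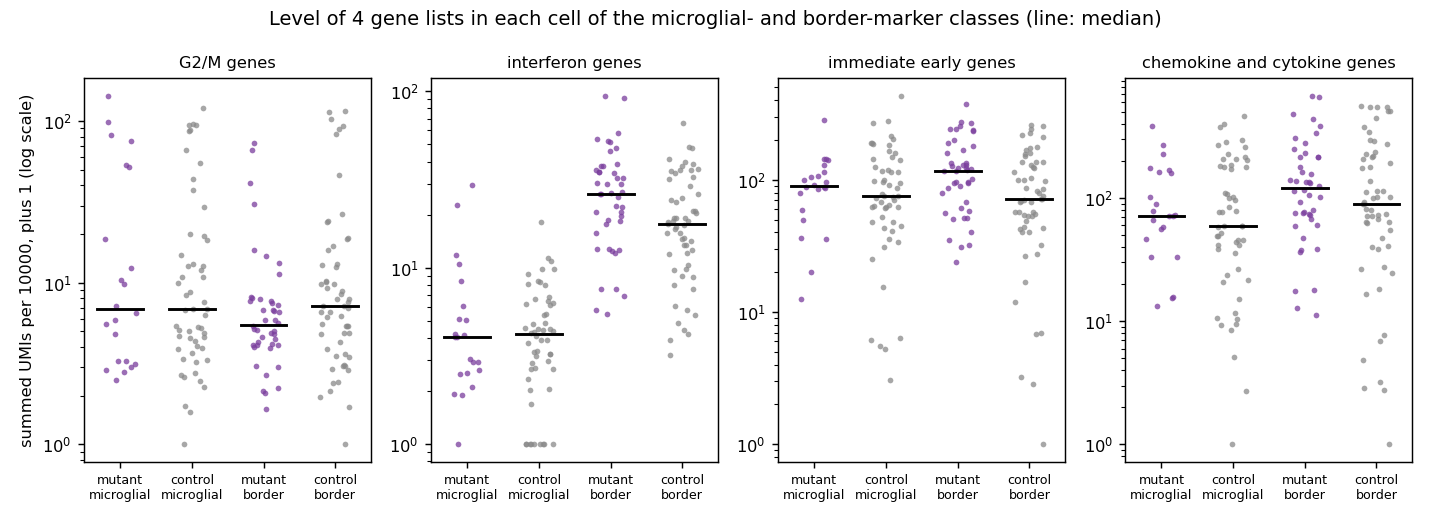
Each point is 1 cell, with the summed UMIs of a gene list per 10000 UMIs plus 1 on a log y axis, for mutant (purple) and control (grey) cells of the microglial- and border-marker classes; lines are medians. Border-marker medians were 25.3 in mutant and 16.8 in control cells for interferon genes and 116 and 70.3 for immediate early genes, and all groups overlap.

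Transcripts of mitosis were fewer in mutant border-marker cells. Of 25 genes of the G2 and M phases, 18 were held lower and 0 higher, and the list's median log2 ratio was -1.46. Birc5, survivin, stood at 29.0 CPM in mutant cells, against 129 CPM in control cells (ratio 0.225, 0.121 to 0.391), in 3 of 44 mutant and 13 of 57 control cells. Top2a, a topoisomerase that untangles sister chromatids, was at 42.5 and 120 CPM, Mki67, which coats mitotic chromosomes, at 46.4 and 103 CPM, and Hmmr, a spindle protein, at 9.67 and 55.1 CPM in mutant and control cells. At least 30 G2/M UMIs per 10000 were found in 3 of 44 mutant and 7 of 57 control cells, and the median cell was at 4.49 in mutant and 6.18 in control cells. Of 23 S-phase genes, 3 were held lower (Uhrf1, Fen1 and Dut) and 0 higher, against 4.39% and 3.32% of all genes tested.

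Other kept barcodes went the same way, with Birc5 at 68.8 CPM in the mutant library, against 133 CPM in the control library and Top2a at 144 and 245 CPM. The part of free RNA from them in the members' sums was not tested. The share of border-marker cells with a Mki67 or Top2a UMI in 3000 was 9.09% in mutant (2.53% to 21.7%) and 17.5% in control cells (8.75% to 29.9%), and a difference was not detectable at this depth. The same count in neuron-marker cells, most of which do not divide, gave 5.17% in the mutant and 12.8% in the control library, so that the border-marker shares lay near this background. Median depths were 10449 and 9791 UMIs in mutant and control border-marker cells and 9873 and 10368 UMIs in mutant and control neuron-marker cells. Without thinning the border-marker shares were 20.5% in mutant and 31.6% in control cells.

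Microglial-marker cells did not follow. There, 3 of 25 G2/M genes were held higher in mutant cells and 0 lower: Ube2c, the ubiquitin-conjugating enzyme of mitotic exit (441 and 146 CPM in mutant and control cells), Cenpf, a kinetochore protein (263 and 94.0 CPM), and Hmmr (91.9 and 34.9 CPM). The list's median log2 ratio was 0.61, and 0.05 once doublets called by Scrublet were removed. At least 30 G2/M UMIs per 10000 were found in 6 of 22 mutant and 10 of 54 control cells. Of 22 S-phase genes 4 were held lower and 0 higher, against 5.1% and 2.28% of all genes tested. The share with a Mki67 or Top2a UMI was 31.8% in mutant (13.9% to 54.9%) and 27.8% in control cells (16.46% to 41.6%), or 45.5% and 42.6% in mutant and control cells without thinning.

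The promoters of 4 of these genes are shown because their summed levels were lower together in mutant border-marker cells. They are Hmmr (chr11:40733438-40733687, minus strand), Mki67 (chr7:135716380-135716629, minus strand), Birc5 (chr11:117848987-117849236, plus strand) and Top2a (chr11:99024190-99024439, minus strand), again the 250 bases before the RefSeq start in GRCm38.p6. Capitals mark CCAAT, the box bound by NF-Y, or its reverse complement ATTGG, and TTTGAA, the letters of the cell cycle homology region, or its reverse complement TTCAAA.
Hmmr: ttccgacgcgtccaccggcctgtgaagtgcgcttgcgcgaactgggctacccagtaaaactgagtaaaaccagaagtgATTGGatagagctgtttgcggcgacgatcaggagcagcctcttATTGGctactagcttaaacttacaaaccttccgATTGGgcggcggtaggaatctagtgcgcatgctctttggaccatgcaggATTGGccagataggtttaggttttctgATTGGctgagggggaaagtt
Mki67: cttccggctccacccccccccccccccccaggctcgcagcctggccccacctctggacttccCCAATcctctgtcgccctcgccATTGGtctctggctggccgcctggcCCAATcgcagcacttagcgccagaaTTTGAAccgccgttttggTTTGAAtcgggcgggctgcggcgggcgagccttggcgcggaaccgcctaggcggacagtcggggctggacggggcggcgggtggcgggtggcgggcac
Birc5: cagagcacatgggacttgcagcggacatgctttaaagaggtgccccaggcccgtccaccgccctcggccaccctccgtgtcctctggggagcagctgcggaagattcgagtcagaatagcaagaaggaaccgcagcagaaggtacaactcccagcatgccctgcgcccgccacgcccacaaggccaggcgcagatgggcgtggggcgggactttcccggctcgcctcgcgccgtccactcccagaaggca
Top2a: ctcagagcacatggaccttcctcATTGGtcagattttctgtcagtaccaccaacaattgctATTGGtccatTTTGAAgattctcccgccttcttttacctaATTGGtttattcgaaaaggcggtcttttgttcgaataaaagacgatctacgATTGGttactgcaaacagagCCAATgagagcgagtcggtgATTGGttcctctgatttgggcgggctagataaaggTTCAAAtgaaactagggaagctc
Hmmr held 5 CCAAT boxes, Mki67 held 3 with 2 TTTGAA, Top2a held 6 with 2 TTTGAA, and Birc5 had 0 of either. CCAAT occurs in 33.8% and TTTGAA in 16.0% of the 32851 promoters.

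Genes of the lesion appeared in mutant members at levels below those of the surrounding cells. Wif1, a secreted Wnt inhibitor, stood at 165 CPM in mutant cells, against 3.03 CPM in control microglial-marker cells, and in border-marker cells at 54.1 CPM in mutant and 0 in control, at least 12.4-fold higher with a floor of 3 counts over the control class. In other kept barcodes Wif1 was at 300 CPM in the mutant library, against 2.43 CPM in the control library. Fstl4, a follistatin-like gene, was at 178 CPM in mutant and 0 in control border-marker cells, at least 40.9-fold higher with the same floor, and at 544 CPM in other kept barcodes of the mutant library against 5.57 CPM in those of the control library. Fstl4 had UMIs in 10 of 44 mutant border-marker cells, and 45.7% of them lay in 1 cell. At least 10 UMIs of a list of 9 lesion genes, picked with earlier results of these data known, were carried by 9 of 88 mutant members and 0 of 129 control members. Of the UMIs of that list in mutant microglial-marker cells, 62.2% lay in 1 of the 22 cells. The list summed to 551 CPM there, and to 227 CPM without that cell. In control microglial-marker cells its sum was 31.8 CPM, and 24.8 CPM without the top cell. In mutant border-marker cells 27.2% of the list's UMIs lay in 1 of 44 cells. Scrublet called 6 mutant and 11 control members doublets, and the part of doublets and of free RNA in these levels was not tested.

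Xist, the transcript of the inactive X chromosome in females, was named after its values were seen. It stood at 88.8 and 403 CPM in mutant and control microglial-marker cells, at 257 and 396 CPM in mutant and control border-marker cells, and at 260 and 370 CPM in other kept barcodes of the mutant and control library. The makeup of the pools and the genotype cannot be told apart.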

How the data were processed

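The authors deposited 1 filtered matrix of UMI counts per library, whole numbers per gene and barcode, with 32285 genes and 43053 barcodes in all. Reads were processed with Cell Ranger 7.0.1 against mm10, per the submitters' processing notes. Of columns with per-sample values, 0 were left unused. The members and the gene lists were chosen with earlier results of these data known.

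Counts were summed per library over members or classes, divided by total UMIs and compared as log2 of CPM plus 1, mutant over control. The ratio's 95% interval is exact binomial, conditional on the sum. A gene was tested at 10 CPM or more in either library and called at 1.5-fold with its interval on 1 side of 1. Shares have Clopper-Pearson intervals. Intervals and the limit of 3 counts behind a count of 0 cover counting error only. Member UMIs summed to 1014861 in the mutant and 2106700 in the control library. Counts per cell were thinned to 3000 UMIs, leaving out 16 mutant and 8 control members. Doublets were called by Scrublet and kept, except in an alternative.

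Named genes were the rule genes, Smarca4, Ctnnb1, and, at 50 CPM or more, the 10 largest ratios each way among genes enriched 2-fold in members and the 6 largest among the rest, up to 4 per list, and the 15 most enriched in members. Predicted gene models, haemoglobin, ribosomal, mitochondrial and sex-linked genes were left out. Other list genes and those of the marker classes were chosen after their values were seen.

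Alternatives were library size, TMM, minimum, fold, pseudocount, doublets and neural content. The comparisons within classes and their alternatives, leaving out the deepest barcodes, the minimum of 10 C1q UMIs per 10000, the ratio to endothelial marker cells and the removal of each gene's top barcode were chosen after seeing the data. The comparison was run on simulated sums with counting error only. They held no variation between cells or pools, so the run says nothing about errors from that variation. Python 3.11.15, numpy 2.4.6, scipy 1.17.1, pandas 2.3.3, scanpy 1.11.5 and matplotlib 3.10.9 were used.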

Additional observations from a re-analysis of the deposited data

Results flagged for a closer look

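Some genes past the threshold went opposite ways in the classes, and the difference between the classes was not tested for any of them. Ptgs2, the inducible cyclooxygenase, had a log2 ratio of mutant over control of 0.99 in microglial-marker and -3.77 in border-marker cells. Gdf15, a stress-induced cytokine, had -2.96 in microglial-marker and 3.97 in border-marker cells, where it stood at 151 CPM in mutant cells, against 8.71 CPM in control cells. Anxa2, a membrane-binding annexin, had -1.60 and 1.90, and Pltp, a phospholipid transfer protein, -3.08 and 1.42 in microglial-marker and border-marker cells. Pepd, a dipeptidase, had -0.83 and 0.77, Ckap2l, a spindle protein, 1.10 and -1.18, and Mpp7, a scaffold protein, 0.94 and -1.31 in microglial-marker and border-marker cells. These genes were named because they went opposite ways, and some ratios rest on few mutant UMIs. Pltp stood at 3.06 and 33.3 CPM and Gdf15 at 6.13 and 54.6 CPM in mutant and control microglial-marker cells. Ptgs2 stood at 3.87 and 65.3 CPM in mutant and control border-marker cells.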

How the results depend on the processing

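No paired analysis was possible because each genotype has 1 library. Of the counts and shares that answer a comparison, 93 values under an alternative stayed close and 33 moved. The ratio of member shares ranged from 0.593 to 0.762 over the rules and filters tried. Over all members, 1527 genes were higher and 964 lower. The numbers higher and lower were 872 and 1470 with TMM scaling, 759 and 433 at 50 CPM, 644 and 571 at 2-fold, 575 and 398 without the members highest in neural genes, and 803 and 422 with mean per-cell CPM. They were 501 and 610 in the microglial-marker and 466 and 584 in the border-marker class, 633 and 527 without barcodes over 100000 UMIs, and 592 and 587 with at least 10 C1q UMIs per 10000. In the microglial-marker class 270 were higher and 376 lower at 50 CPM, 1501 higher without thinning (619 when barcodes over 100000 UMIs were left out too), and 219 higher without top barcodes. In the border-marker class 247 were higher and 243 lower at 50 CPM, 745 higher without thinning (with or without barcodes over 100000 UMIs, of which the class had 0), 297 higher without top barcodes, 355 lower without doublets and 265 lower without the members highest in neural genes. Without thinning, 38.8% of control members had a cycling UMI and 79.8% of control members passed the chemokine minimum. At least 3 UMIs of Spp1, Gpnmb, Igf1, Lpl, Lgals3 and Fabp5 together were found in 72.7% of mutant and 65.1% of control members without thinning and in 34.7% and 35.5% with it. In neuron-marker cells the shares were 95.1% and 96.4% without thinning and 65.9% and 74.9% with it. Those cells exceeded the members, so they cannot serve as a background for this share, and nothing is read from it. Median log2 ratios of lists over all members turned to -0.17 for antigen presentation, -1.21 for monocyte and -0.20 for neutrophil, mast and lymphoid genes in the microglial-marker class, and to 0.29 for erythroid genes in the border-marker class. Neural genes turned to 0.14 without the members highest in neural genes, 0.13 without barcodes over 100000 UMIs and 0.22 with at least 10 C1q UMIs per 10000. Within the microglial-marker class, interferon genes turned to -0.27 at 50 CPM, monocyte genes to 0.35 at 50 CPM, 1.09 without doublets and 1.64 without the members highest in neural genes, and mural and fibroblast genes to 0.79 without doublets and 1.79 without the members highest in neural genes. Over all members Ifitm1 turned to -2.01 in the microglial-marker class, Acta2 to 1.24 and Barhl1 to 0.45 without the members highest in neural genes and to 0.69 and 0.36 in the microglial-marker class, and Tenm1 to -1.39 without doublets and -1.29 in the border-marker class. The cause was not tested. With 22 to 57 cells per class and library, precision is low, and 219 of 501 higher and 490 of 610 lower calls in the microglial-marker and 297 of 466 higher and 393 of 584 lower in the border-marker class held without top barcodes.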
